A study of Homo sapiens with 16 samples.

Results

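Interferon-stimulated genes are the genes that cells switch on when an interferon, a cytokine released during virus infection, binds its receptor. A set of 40 such genes was described here, chosen by gene symbol, and each symbol matched exactly 1 of the 60252 rows of the count table. All 40 passed the filter on low counts that left 23830 genes for testing. RNA was sequenced from LNCaP cells, an androgen-sensitive human prostate cancer line, in 16 libraries that made 8 groups of 2. The groups were siOGT1, siOGT2, OSMI2 and Scr cells, each with AT7519 and each with DMSO. The siOGT1 and siOGT2 cells had received 1 of 2 siRNAs against OGT, the enzyme that attaches O-GlcNAc sugars to nuclear and cytosolic proteins, for 48 h, and Scr cells a scrambled siRNA. OSMI2 is a small-molecule inhibitor of OGT that the labels list in the same field as the siRNAs. The sources used here give neither its dose nor its duration, nor do they say if its cells got scrambled siRNA too. AT7519, an inhibitor of cyclin-dependent kinases including the transcriptional kinase CDK9, was given at 0.5 μM for 4 h, and DMSO is its vehicle. All groups are the same cell line, and no group was given interferon according to the labels.

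Type I interferons bind the receptor pair IFNAR1 and IFNAR2, whose kinases JAK1 and TYK2 phosphorylate STAT2. It acts with IRF9 in a complex that binds a promoter sequence called the interferon-stimulated response element (ISRE). A different sequence, the gamma-activated site (GAS), is found at genes that answer to interferon gamma. Cells without added interferon keep a low basal level of many of these genes. LNCaP cells are known for a weak response to interferon and for low JAK1.

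Libraries held 40216911 to 147019364 counts, and each level is in CPM, the count scaled to library size after TMM scaling. CPM is relative to the other genes of a library, so rises and falls do not give RNA per cell. TMM factors were 0.864 to 0.952 in the AT7519 libraries and 1.05 to 1.13 in the DMSO libraries. OGT itself checked the labels. It was at 10.98 to 20.7 CPM in the 4 siOGT1 libraries and 29.3 to 36.02 CPM in the 4 siOGT2 libraries, against 256 to 314 CPM in the 4 Scr libraries. In OSMI2 cells OGT was at 336 to 422 CPM. The 8 luminal prostate markers summed to 4175 to 5185 CPM, and the 5 leukocyte markers to 0.015 to 0.284 CPM. Nothing in the labels says that libraries of a group were separate cultures. The p-values therefore reflect spread between samples that could be technical only. In bulk RNA, fewer cells of a type and less RNA per cell cannot be told apart.

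Promoters are shown because the ISRE is what the set is known for, and because neighbouring members that carry the same ISRE letters gave different values with AT7519. RefSeq windows of 300 bases, from 250 before to 50 after the gene start (GRCh38.p14), were given for 31 of the 40 genes, some with several windows. The others were IFIT2, DHX58, MX2, OAS2, OASL, IRF7, USP18, UBA7 and PML. The ISRE core was searched as TTCNNTTTC on either strand (GAAANNGAA on the other), where adjoining matches can overlap. It occurred in 21 of the 31 genes (67.7%), against 2693 of 27305 genes with a window (9.86%). The GAS core, TTCNNNGAA, reads alike on both strands and occurred in 10 of the 31 (32.3%), against 9.38% of all genes. A match describes letters only. In the sequences that follow, printed along each gene's own strand, capitals mark the ISRE core, for ISG15 as the ubiquitin-like effector that names the family, B2M as the member with the highest count, IFIT5 as a gene that fell with AT7519, and the neighbours DTX3L and PARP9.
ISG15 (chr1:1013247-1013546, plus strand): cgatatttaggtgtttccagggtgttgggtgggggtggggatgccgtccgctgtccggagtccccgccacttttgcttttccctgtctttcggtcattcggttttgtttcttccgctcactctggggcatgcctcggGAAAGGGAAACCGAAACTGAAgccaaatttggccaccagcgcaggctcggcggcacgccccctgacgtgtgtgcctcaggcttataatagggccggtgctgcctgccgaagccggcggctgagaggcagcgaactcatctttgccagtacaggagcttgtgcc
B2M (chr15:44711267-44711566, plus strand): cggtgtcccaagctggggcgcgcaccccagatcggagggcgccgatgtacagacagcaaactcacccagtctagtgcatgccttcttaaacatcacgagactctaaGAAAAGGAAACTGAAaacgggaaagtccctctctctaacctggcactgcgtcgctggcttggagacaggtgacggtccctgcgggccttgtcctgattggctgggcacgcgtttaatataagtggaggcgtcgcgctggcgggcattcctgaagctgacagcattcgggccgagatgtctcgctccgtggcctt
IFIT5 (chr10:89414318-89414617, plus strand): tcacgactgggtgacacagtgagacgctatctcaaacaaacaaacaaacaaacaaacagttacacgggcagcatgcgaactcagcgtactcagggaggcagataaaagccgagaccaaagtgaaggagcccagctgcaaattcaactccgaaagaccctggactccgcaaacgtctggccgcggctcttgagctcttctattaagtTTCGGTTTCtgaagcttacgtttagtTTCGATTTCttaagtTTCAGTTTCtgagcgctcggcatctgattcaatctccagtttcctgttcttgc
DTX3L (chr3:122564088-122564387, plus strand): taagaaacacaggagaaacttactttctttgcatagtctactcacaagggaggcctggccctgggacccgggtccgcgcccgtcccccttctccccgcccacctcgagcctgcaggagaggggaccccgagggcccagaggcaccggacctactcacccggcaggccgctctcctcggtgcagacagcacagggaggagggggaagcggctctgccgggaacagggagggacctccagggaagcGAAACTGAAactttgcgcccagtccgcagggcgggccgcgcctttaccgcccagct
PARP9 (chr3:122564251-122564550, minus strand): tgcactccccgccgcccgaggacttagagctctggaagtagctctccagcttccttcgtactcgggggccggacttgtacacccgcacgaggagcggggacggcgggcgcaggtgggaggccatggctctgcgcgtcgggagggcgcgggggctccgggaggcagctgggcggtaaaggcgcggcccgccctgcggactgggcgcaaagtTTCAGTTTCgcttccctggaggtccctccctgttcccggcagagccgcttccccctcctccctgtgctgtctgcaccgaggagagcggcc
The ISG15 window held 3 overlapping matches, 113, 107 and 101 bases before the start, and the B2M window 2 overlapping ones, 144 and 138 bases before it. Distances are to the first base of a match. IFIT5 had 3 separate matches, the nearest of which began 3 bases before the start and ran across it. DTX3L and PARP9 lie back to back on opposite strands, and their windows overlap by 137 bases. The GAAACTGAA of DTX3L began 6 bases before its start and ran across it. It and the TTCAGTTTC of PARP9, 40 bases before the PARP9 start, are the same letters read from the 2 strands. A further PARP9 window, not printed here, held no match. The letters occurred both in genes that rose with AT7519 (ISG15, B2M, IFI6, OAS3) and in genes that fell (IFIT5, TRIM21, DTX3L).

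Basal levels in Scr cells with DMSO spanned more than 3 orders of magnitude when expressed per kb of exon. The length was that of all annotated exons of a gene merged, 6079 bases for B2M and 2507 for HLA-C. It can exceed the length of the main transcript, so the order of genes depends on this choice. HLA-C (53.3 CPM per kb) and B2M (52.6), the heavy and light chains of MHC class I molecules, stood at the top, followed by ISG15, a ubiquitin-like protein, at 30.1. TRIM25, a ubiquitin ligase of the RIG-I pathway, followed at 15.4 and IFI6, a small membrane protein, at 10.5. The 2 Scr libraries gave 55.6 and 50.9 CPM per kb for HLA-C and 52.9 and 52.2 for B2M, so these neighbours in the order did not differ beyond their spread. The lowest were IFI44L at 0.0545, OAS2 at 0.0257 and MX2 at 0.0239 CPM per kb, whose 2 libraries also overlapped. Across all 16 libraries, 12 members stayed at 10 CPM or more, and 4 (IFI44L, MX2, OAS2 and BST2) stayed under 1 CPM. Reads of HLA-B and HLA-C are so alike that their counts may be split wrongly between them. IRF9 shares 48.4% of its exonic bases with a gene on the same strand, so its count is uncertain whatever the strand setting. IRF1 shares 22% with a gene on the opposite strand. The IRF1 count is uncertain too, since no source used here states how strand was handled in counting.

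**Figure D1:**
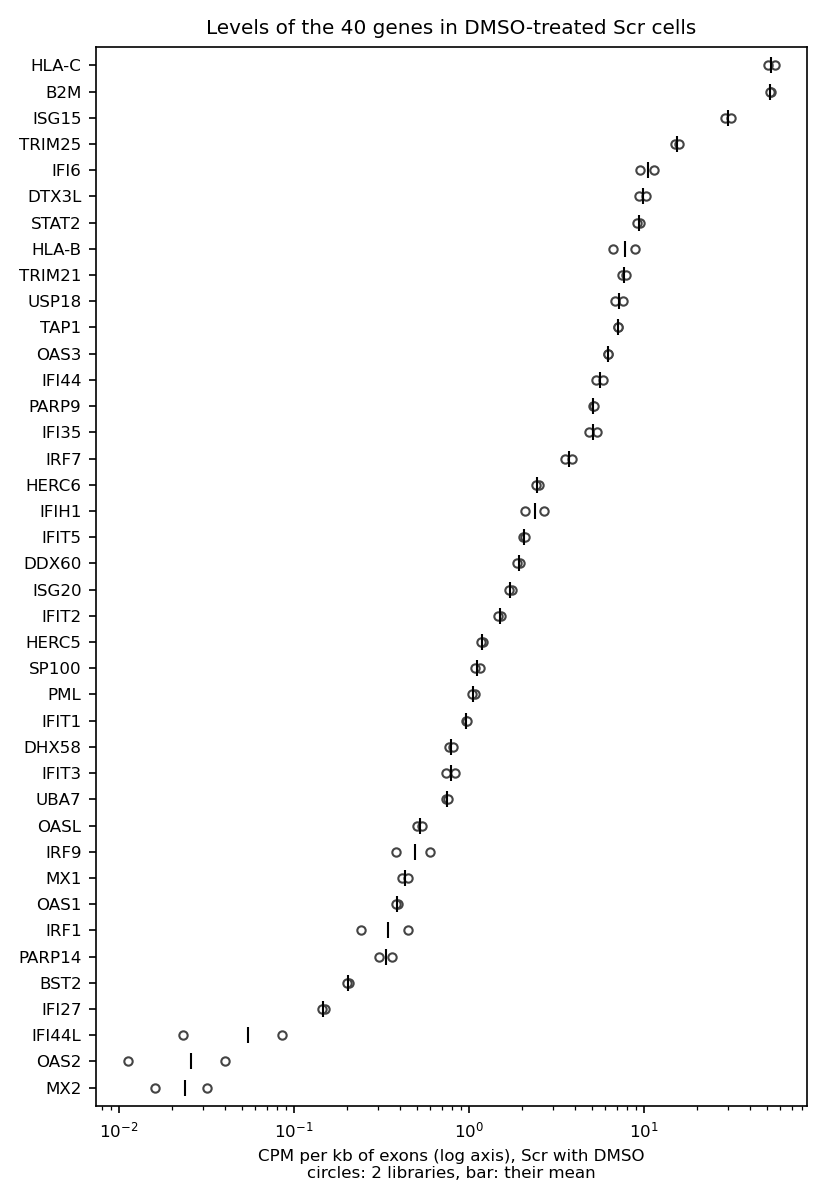
Levels of the 40 genes in Scr cells with DMSO, in CPM per kb of exon on a log axis, with each library as a circle and the mean as a bar. HLA-C and B2M lie above 50 CPM per kb, and IFI44L, OAS2 and MX2 lie under 0.1.

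The upstream pathway was present in part. The 10 interferon genes listed as ligands summed to 67 counts over all 16 libraries, no gene had more than 6 counts in a library, and IFNA1, IFNA2, IFNG and IFNE were at 0 in all of them. Per kb of exon in Scr cells with DMSO, IFNAR1 was at 23.2 CPM, TYK2 at 10.2 and JAK2 at 4.77. JAK1 was at 1.08. The ratio of JAK1 to TYK2 CPM ranged from 0.0877 to 0.139 with AT7519 and from 0.0783 to 0.118 with DMSO.

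The genes did not share a direction with AT7519. Antigen-presentation genes and ISG15, IFI6, OAS3 and IRF7 rose in all 4 arms, by 1.24 to 1.71-fold, while IFIT2, IFIT5, DHX58, TRIM21, DTX3L and PML fell in all 4, to between 22.1% and 80.2% of their DMSO levels. The calls of PML and IFIT2 among these falls did not hold in every arm under other scalings. Among the rises, the calls of TAP1 and OAS3 ended in all 4 arms by library size alone, and those of IRF7, ISG15 and IFI6 in some arms. Higher in all arms were 8 of the 40 genes (20%), where 15% of all tested genes were. Lower in all arms were 6 (15%), where 15.3% of all tested genes were. Another 12 passed the test in no arm, among them MX1, OAS1, IFI27 and PARP9. In siOGT1 cells 8 members rose and 7 fell, with 41.5% of all tested genes called. In siOGT2 cells 9 rose and 8 fell, with 45% called. In OSMI2 cells 12 rose and 9 fell, with 47.2% called. In Scr cells 11 rose and 7 fell, with 46.5% called. The median log2 fold change of the 40 was -0.06 in siOGT1, -0.08 in siOGT2, 0.18 in OSMI2 and 0.05 in Scr. The median over all tested genes was -0.05 in siOGT1, -0.03 in siOGT2, 0.02 in OSMI2 and -0.05 in Scr. The shares of the 40 called, 37.5% in siOGT1, 42.5% in siOGT2, 52.5% in OSMI2 and 45% in Scr, were near those of all tested genes. A gene passed, or was called, when its p from edgeR's quasi-likelihood test, adjusted by Benjamini-Hochberg, was under 0.05. The split into rises and falls depends on the scaling. By library size alone it was 4 higher and 14 lower in siOGT1, 4 and 12 in siOGT2, 3 and 13 in OSMI2 and 7 and 12 in Scr. That scaling put the median of all genes at -0.27 in siOGT1, -0.30 in siOGT2, -0.22 in OSMI2 and -0.30 in Scr. With upper-quartile scaling the split was 12 and 5 in siOGT1, 10 and 7 in siOGT2, 17 and 7 in OSMI2 and 15 and 6 in Scr, and the median of all genes was 0.09 in siOGT1, 0.07 in siOGT2, 0.20 in OSMI2 and 0.10 in Scr.

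**Figure D2:**
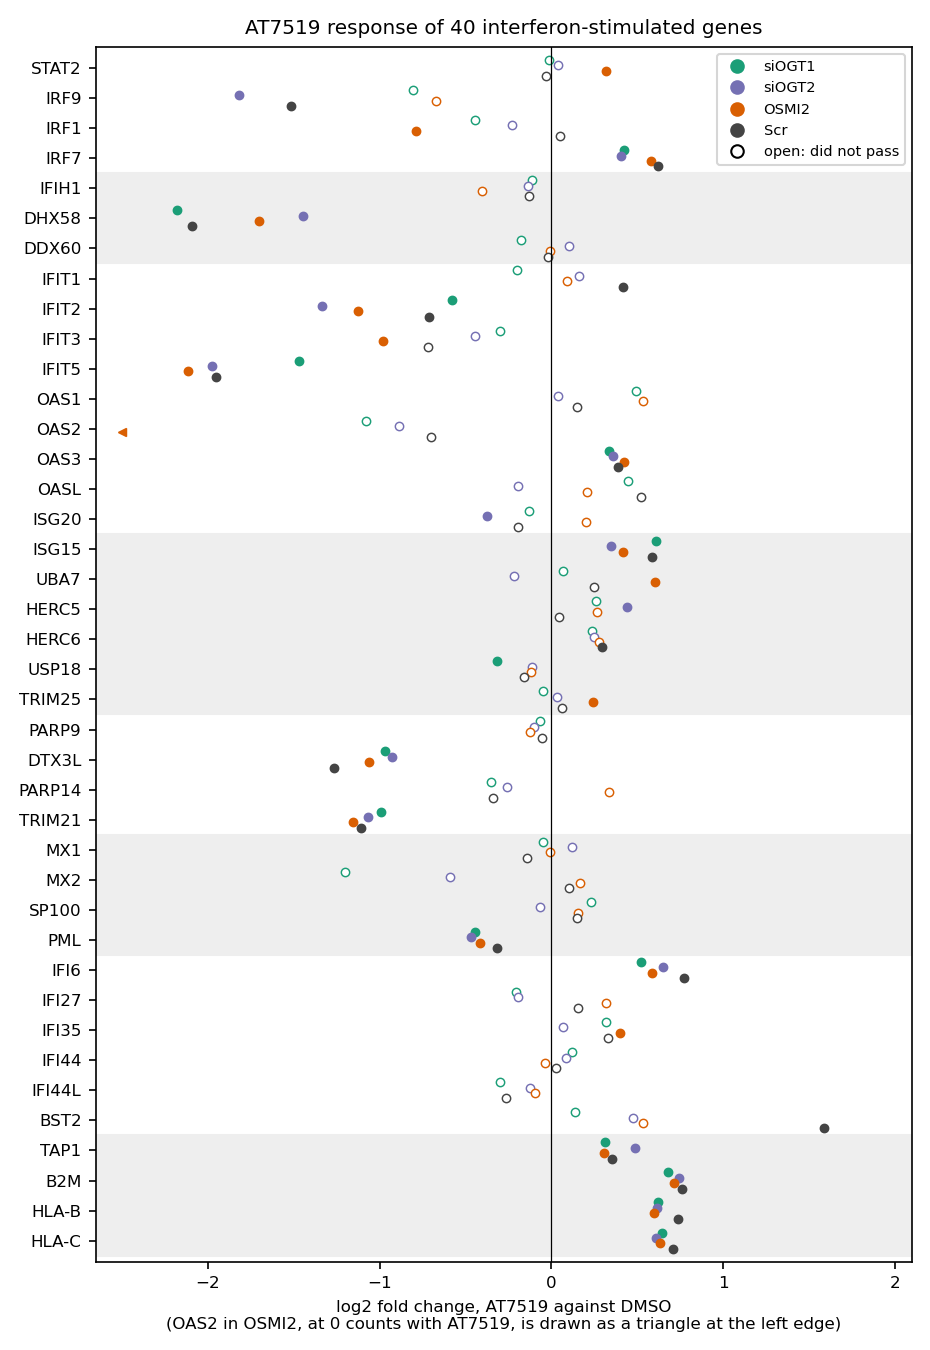
Log2 fold change of AT7519 against DMSO for the 40 genes, grouped by role, with 1 point per arm, filled where the gene passed the test. The points of B2M, HLA-B, HLA-C, ISG15 and IFI6 lie right of 0 in all arms, and those of DHX58, IFIT5, TRIM21 and DTX3L left of it.

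The antigen-presentation members rose in every arm. B2M, which every MHC class I molecule needs to reach the cell surface, was at 519 and 471 CPM with AT7519 against 311 and 306 CPM with DMSO in siOGT1 cells, and at 594 and 491 against 316 and 333 in siOGT2 cells. In OSMI2 cells, B2M was at 507 and 512 against 298 and 322, and in Scr cells at 548 and 533 against 322 and 317. Every AT7519 library was above every DMSO library, and the log2 fold changes were 0.68 ± 0.08 in siOGT1, 0.74 ± 0.08 in siOGT2, 0.71 ± 0.08 in OSMI2 and 0.76 ± 0.08 in Scr (± SE, edgeR adjusted p of at most 1.87e-06). HLA-C, a class I heavy chain, was at 188 and 162 CPM with AT7519 against 116 and 108 CPM with DMSO in siOGT1 cells, and at 228 and 216 against 149.9 and 141 in siOGT2 cells. In OSMI2 cells, HLA-C was at 190.4 and 213 against 126 and 134, and in Scr cells at 229 and 208 against 139.5 and 127. Its log2 fold changes were 0.65 ± 0.09 in siOGT1, 0.61 ± 0.09 in siOGT2, 0.63 ± 0.09 in OSMI2 and 0.71 ± 0.09 in Scr (edgeR adjusted p of at most 1.11e-05), and AT7519 and DMSO libraries again did not overlap. HLA-B was at 33.7 and 28.8 CPM with AT7519 against 20.9 and 19.7 CPM with DMSO in siOGT1 cells, and at 39.1 and 34.3 against 25.7 and 22.2 in siOGT2 cells. In OSMI2 cells, HLA-B was at 38.8 and 44.9 against 26.8 and 28.3, and in Scr cells at 42.4 and 36.9 against 27.1 and 20.3. HLA-B had log2 fold changes of 0.62 ± 0.13 in siOGT1, 0.61 ± 0.13 in siOGT2, 0.60 ± 0.13 in OSMI2 and 0.74 ± 0.13 in Scr (edgeR adjusted p of at most 7.97e-04). The ratio of HLA-C to HLA-B CPM ranged from 4.74 to 6.31 with AT7519 and from 4.70 to 6.35 with DMSO. TAP1, which carries peptides into the endoplasmic reticulum for class I loading, was at 44.6 and 39.2 CPM with AT7519 against 32.9 and 34.6 CPM with DMSO in siOGT1 cells, and at 49.5 and 47.4 against 34.8 and 34.3 in siOGT2 cells. In OSMI2 cells, TAP1 was at 39.1 and 47.04 against 32.9 and 36.6, and in Scr cells at 45.2 and 41.6 against 34.1 and 33.8. It had log2 fold changes of 0.31 ± 0.10 in siOGT1, 0.49 ± 0.10 in siOGT2, 0.31 ± 0.10 in OSMI2 and 0.35 ± 0.10 in Scr (edgeR adjusted p of at most 0.0173). With scaling by library size alone TAP1 passed in no arm, while B2M, HLA-B and HLA-C passed in all 4.

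ISG15 and 3 further effectors or regulators rose beside them. ISG15 was at 44.9 and 43.7 CPM with AT7519 against 29.1 and 29.02 CPM with DMSO in siOGT1 cells, and at 40.5 and 38.9 against 32.01 and 30.5 in siOGT2 cells. In OSMI2 cells, ISG15 was at 31.1 and 36.4 against 23.2 and 27.2, and in Scr cells at 43.1 and 42.1 against 27.2 and 29.5. Within each arm the groups did not overlap. Its log2 fold changes were 0.61 ± 0.10 in siOGT1, 0.35 ± 0.10 in siOGT2, 0.42 ± 0.10 in OSMI2 and 0.59 ± 0.10 in Scr (edgeR adjusted p of at most 0.00793). IFI6, known to act against viruses at the endoplasmic reticulum and mitochondria, was at 14.7 and 13.2 CPM with AT7519 against 9.22 and 10.2 CPM with DMSO in siOGT1 cells, and at 18.1 and 15.3 against 11.2 and 10.1 in siOGT2 cells. In OSMI2 cells, IFI6 was at 13.02 and 14.5 against 8.08 and 10.2, and in Scr cells at 16.5 and 14.5 against 9.89 and 8.203. It had log2 fold changes of 0.52 ± 0.14 in siOGT1, 0.65 ± 0.14 in siOGT2, 0.59 ± 0.15 in OSMI2 and 0.77 ± 0.14 in Scr (edgeR adjusted p of at most 0.00586). OAS3, which makes short oligoadenylates on sensing double-stranded RNA, was at 49.6 and 48.5 CPM with AT7519 against 38.2 and 39.5 CPM with DMSO in siOGT1 cells, and at 50.03 and 47.2 against 37.6 and 38.1 in siOGT2 cells. In OSMI2 cells, OAS3 was at 65.9 and 69.2 against 53.4 and 47.2, and in Scr cells at 66.5 and 67.4 against 51.2 and 51.3. It rose in every arm, with log2 fold changes of 0.34 ± 0.08 in siOGT1, 0.36 ± 0.08 in siOGT2, 0.43 ± 0.08 in OSMI2 and 0.39 ± 0.08 in Scr (edgeR adjusted p of at most 0.00247). IRF7, the transcription factor that drives interferon alpha genes, was at 9.78 and 9.47 CPM with AT7519 against 7.31 and 7.01 CPM with DMSO in siOGT1 cells, and at 12.03 and 12.5 against 9.75 and 8.75 in siOGT2 cells. In OSMI2 cells, IRF7 was at 10.7 and 14.2 against 7.79 and 8.801, and in Scr cells at 15.1 and 14.7 against 9.28 and 10.2. IRF7 had log2 fold changes of 0.42 ± 0.14 in siOGT1, 0.41 ± 0.14 in siOGT2, 0.58 ± 0.14 in OSMI2 and 0.62 ± 0.14 in Scr (edgeR adjusted p of at most 0.0212). By library size alone the calls of OAS3 ended in all 4 arms, those of IRF7 in siOGT1, siOGT2 and OSMI2, those of ISG15 in siOGT2 and OSMI2, and those of IFI6 in siOGT1 and OSMI2.

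The falls shared by all 4 arms were in a sensor, RNA binders, ubiquitin ligases and PML. DHX58, which encodes LGP2, a regulator of RIG-I-like sensing, was at 0.147 and 0.638 CPM with AT7519 against 2.204 and 1.57 CPM with DMSO in siOGT1 cells, and at 0.533 and 0.834 against 2.09 and 1.64 in siOGT2 cells. In OSMI2 cells, DHX58 was at 0.6497 and 1.42 against 2.95 and 3.53, and in Scr cells at 0.649 and 0.766 against 2.96 and 3.11. It fell to 22.1% of the DMSO level in siOGT1, 36.7% in siOGT2, 30.7% in OSMI2 and 23.5% in Scr, with log2 fold changes of -2.18 ± 0.43 in siOGT1, -1.45 ± 0.42 in siOGT2, -1.70 ± 0.40 in OSMI2 and -2.09 ± 0.41 in Scr (edgeR adjusted p of at most 0.00794). The 2 siOGT1 libraries with AT7519 were far apart, at 0.147 and 0.638 CPM. IFIT5, which binds RNA with foreign ends, was at 2.26 and 0.922 CPM with AT7519 against 4.31 and 4.22 CPM with DMSO in siOGT1 cells, and at 2.13 and 0.834 against 5.35 and 6.35 in siOGT2 cells. In OSMI2 cells, IFIT5 was at 1.905 and 1.71 against 7.99 and 7.76, and in Scr cells at 2.597 and 1.68 against 8.13 and 8.34. It had log2 fold changes of -1.47 ± 0.37 in siOGT1, -1.98 ± 0.37 in siOGT2, -2.11 ± 0.37 in OSMI2 and -1.95 ± 0.36 in Scr (edgeR adjusted p of at most 0.00428), and no AT7519 library reached any DMSO library. TRIM21, a cytosolic antibody receptor and ubiquitin ligase, was at 6.62 and 4.66 CPM with AT7519 against 12.2 and 10.02 CPM with DMSO in siOGT1 cells, and at 4.75 and 5.29 against 11.9 and 9.09 in siOGT2 cells. In OSMI2 cells, TRIM21 was at 6.33 and 6.001 against 12.6 and 14.9, and in Scr cells at 7.22 and 6.59 against 14.5 and 15.2. TRIM21 had log2 fold changes of -0.99 ± 0.17 in siOGT1, -1.07 ± 0.17 in siOGT2, -1.16 ± 0.17 in OSMI2 and -1.11 ± 0.17 in Scr (edgeR adjusted p of at most 9.23e-05). PML, the scaffold of PML nuclear bodies, was at 9.32 and 10.1 CPM with AT7519 against 12.9 and 13.5 CPM with DMSO in siOGT1 cells, and at 8.67 and 9.47 against 12.4 and 12.7 in siOGT2 cells. In OSMI2 cells, PML was at 9.97 and 11.3 against 14.1 and 14.3, and in Scr cells at 10.6 and 10.8 against 13.6 and 13.1. PML had log2 fold changes of -0.44 ± 0.12 in siOGT1, -0.47 ± 0.12 in siOGT2, -0.41 ± 0.12 in OSMI2 and -0.32 ± 0.12 in Scr (edgeR adjusted p of at most 0.0312). The PML call in Scr ended with RLE scaling (-0.27, edgeR adjusted p = 0.0614), with upper-quartile scaling (-0.16, edgeR adjusted p = 0.265) and with no low-count filter (-0.31, edgeR adjusted p = 0.0984). Its call in OSMI2 ended with upper-quartile scaling (-0.24, edgeR adjusted p = 0.0968).

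The pair DTX3L and PARP9, whose proteins form a ubiquitin ligase complex, came apart. DTX3L was at 27.5 and 27.2 CPM with AT7519 against 51.7 and 55.2 CPM with DMSO in siOGT1 cells, and at 28.3 and 26.9 against 49.2 and 55.9 in siOGT2 cells. In OSMI2 cells, DTX3L was at 25.4 and 33.7 against 56.1 and 66.8, and in Scr cells at 25.7 and 22.1 against 54.5 and 60.2. Its log2 fold changes were -0.97 ± 0.12 in siOGT1, -0.93 ± 0.12 in siOGT2, -1.06 ± 0.12 in OSMI2 and -1.26 ± 0.12 in Scr (edgeR adjusted p of at most 4.26e-06). PARP9 was at 40.2 and 43.8 CPM with AT7519 against 43.2 and 44.6 CPM with DMSO in siOGT1 cells, and at 42.8 and 43.6 against 43.6 and 48.9 in siOGT2 cells. In OSMI2 cells, PARP9 was at 40.2 and 44.8 against 45.8 and 46.9, and in Scr cells at 43.2 and 45.01 against 45.6 and 46.1. It passed in no arm, with log2 fold changes of -0.06 ± 0.09 in siOGT1, -0.10 ± 0.09 in siOGT2, -0.13 ± 0.09 in OSMI2 and -0.06 ± 0.09 in Scr. The ratio of DTX3L to PARP9 CPM within a library had a lowest value of 0.490, a median of 0.626 and a highest value of 0.752 in the 8 AT7519 libraries, against a lowest of 1.13, a median of 1.21 and a highest of 1.42 in the 8 DMSO libraries. The ranges did not overlap, and because both genes come from the same library the ratio does not depend on scaling. The 217 exonic bases that the genes share on opposite strands make up 3.7% of DTX3L and 2.4% of PARP9.

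**Figure D3:**
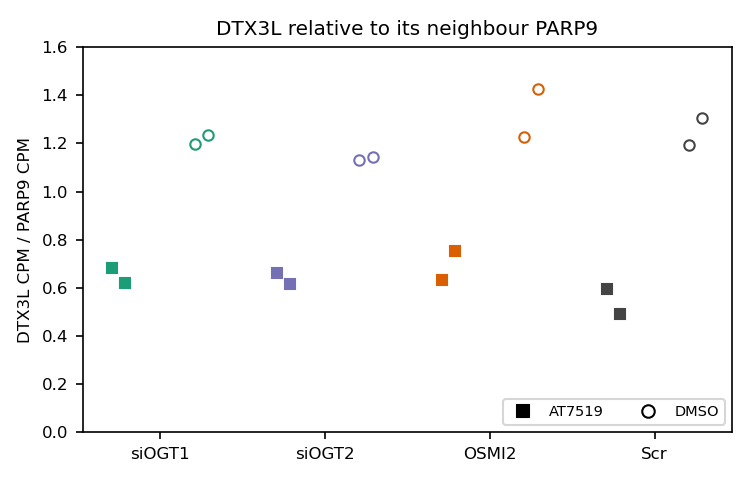
Ratio of DTX3L CPM to PARP9 CPM in each of the 16 libraries, by arm, with filled squares for AT7519 and open circles for DMSO. The AT7519 libraries lie between 0.490 and 0.752 and the DMSO libraries between 1.13 and 1.42.

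The IFIT cluster members on the same chromosome did not move as a group. IFIT2 was at 1.39 and 1.73 CPM with AT7519 against 2.66 and 1.97 CPM with DMSO in siOGT1 cells, and at 1.91 and 2.09 against 5.47 and 4.602 in siOGT2 cells. In OSMI2 cells, IFIT2 was at 2.42 and 1.97 against 4.23 and 5.42, and in Scr cells at 3.78 and 3.68 against 6.23 and 6.02. It had log2 fold changes of -0.58 ± 0.21 in siOGT1, -1.33 ± 0.21 in siOGT2, -1.12 ± 0.21 in OSMI2 and -0.71 ± 0.20 in Scr (edgeR adjusted p of at most 0.0339). The IFIT2 call in siOGT1 ended with upper-quartile scaling (-0.44, edgeR adjusted p = 0.102) and with no low-count filter (-0.57, edgeR adjusted p = 0.0506). IFIT1, which binds foreign capped RNA, was at 4.53 and 4.81 CPM with AT7519 against 5.15 and 5.62 CPM with DMSO in siOGT1 cells, and at 4.61 and 4.65 against 4.25 and 4.03 in siOGT2 cells. In OSMI2 cells, IFIT1 was at 3.78 and 4.896 against 3.66 and 4.42, and in Scr cells at 6.18 and 5.72 against 4.39 and 4.498. It passed in Scr cells alone (log2 fold change 0.42 ± 0.17, edgeR adjusted p = 0.0433), and the other changes were -0.20 ± 0.16 in siOGT1, 0.16 ± 0.17 in siOGT2 and 0.09 ± 0.17 in OSMI2. IFIT3, a partner of IFIT1 and IFIT2, was at 1.01 and 0.662 CPM with AT7519 against 1.11 and 0.905 CPM with DMSO in siOGT1 cells, and at 1.098 and 0.866 against 1.38 and 1.29 in siOGT2 cells. In OSMI2 cells, IFIT3 was at 0.9302 and 0.948 against 1.49 and 2.21, and in Scr cells at 0.965 and 1.53 against 1.95 and 2.2004. Only its fall in OSMI2 passed (log2 fold change -0.98 ± 0.31, edgeR adjusted p = 0.0127), and its estimate in Scr missed the threshold at -0.72 ± 0.29 (edgeR adjusted p = 0.0515). A pass in some arms and not in others does not show that the arms differ. The cluster lies in the opposite orientation to LIPA, whose mean count of 6532 was above those of IFIT1, IFIT2 and IFIT3 (341, 259 and 95.6), and 1.6% of IFIT2 exonic bases overlap it.

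Among the factors that read the ISRE, STAT2 was at 50.2 and 57.4 CPM with AT7519 against 57.4 and 50.98 CPM with DMSO in siOGT1 cells, and at 49.9 and 63.3 against 59.01 and 50.9 in siOGT2 cells. In OSMI2 cells, STAT2 was at 82.9 and 87.3 against 66.98 and 69.2, and in Scr cells at 52.3 and 58.8 against 57.8 and 55.7. It passed in OSMI2 (log2 fold change 0.32 ± 0.11, edgeR adjusted p = 0.0201), and its change was -0.01 ± 0.11 in siOGT1, 0.04 ± 0.11 in siOGT2 and -0.03 ± 0.11 in Scr. IRF9 was at 0.697 and 0.7799 CPM with AT7519 against 1.39 and 1.196 CPM with DMSO in siOGT1 cells, and at 0.408 and 0.561 against 2.005 and 1.41 in siOGT2 cells. In OSMI2 cells, IRF9 was at 0.768 and 1.24 against 1.41 and 1.71, and in Scr cells at 0.427 and 0.855 against 2.25 and 1.45. It fell in siOGT2 (log2 fold change -1.82 ± 0.37, edgeR adjusted p = 4.22e-04), and in Scr (log2 fold change -1.52 ± 0.35, edgeR adjusted p = 0.00131). IRF1, a short-lived activator of class I genes, was at 1.56 and 2.28 CPM with AT7519 against 3.02 and 2.198 CPM with DMSO in siOGT1 cells, and at 3.54 and 3.401 against 3.87 and 4.26 in siOGT2 cells. In OSMI2 cells, IRF1 was at 1.49 and 1.34 against 2.7998 and 2.13, and in Scr cells at 3.13 and 2.46 against 3.47 and 1.87. It fell in OSMI2 (log2 fold change -0.79 ± 0.29, edgeR adjusted p = 0.0295).

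**Figure D4:**
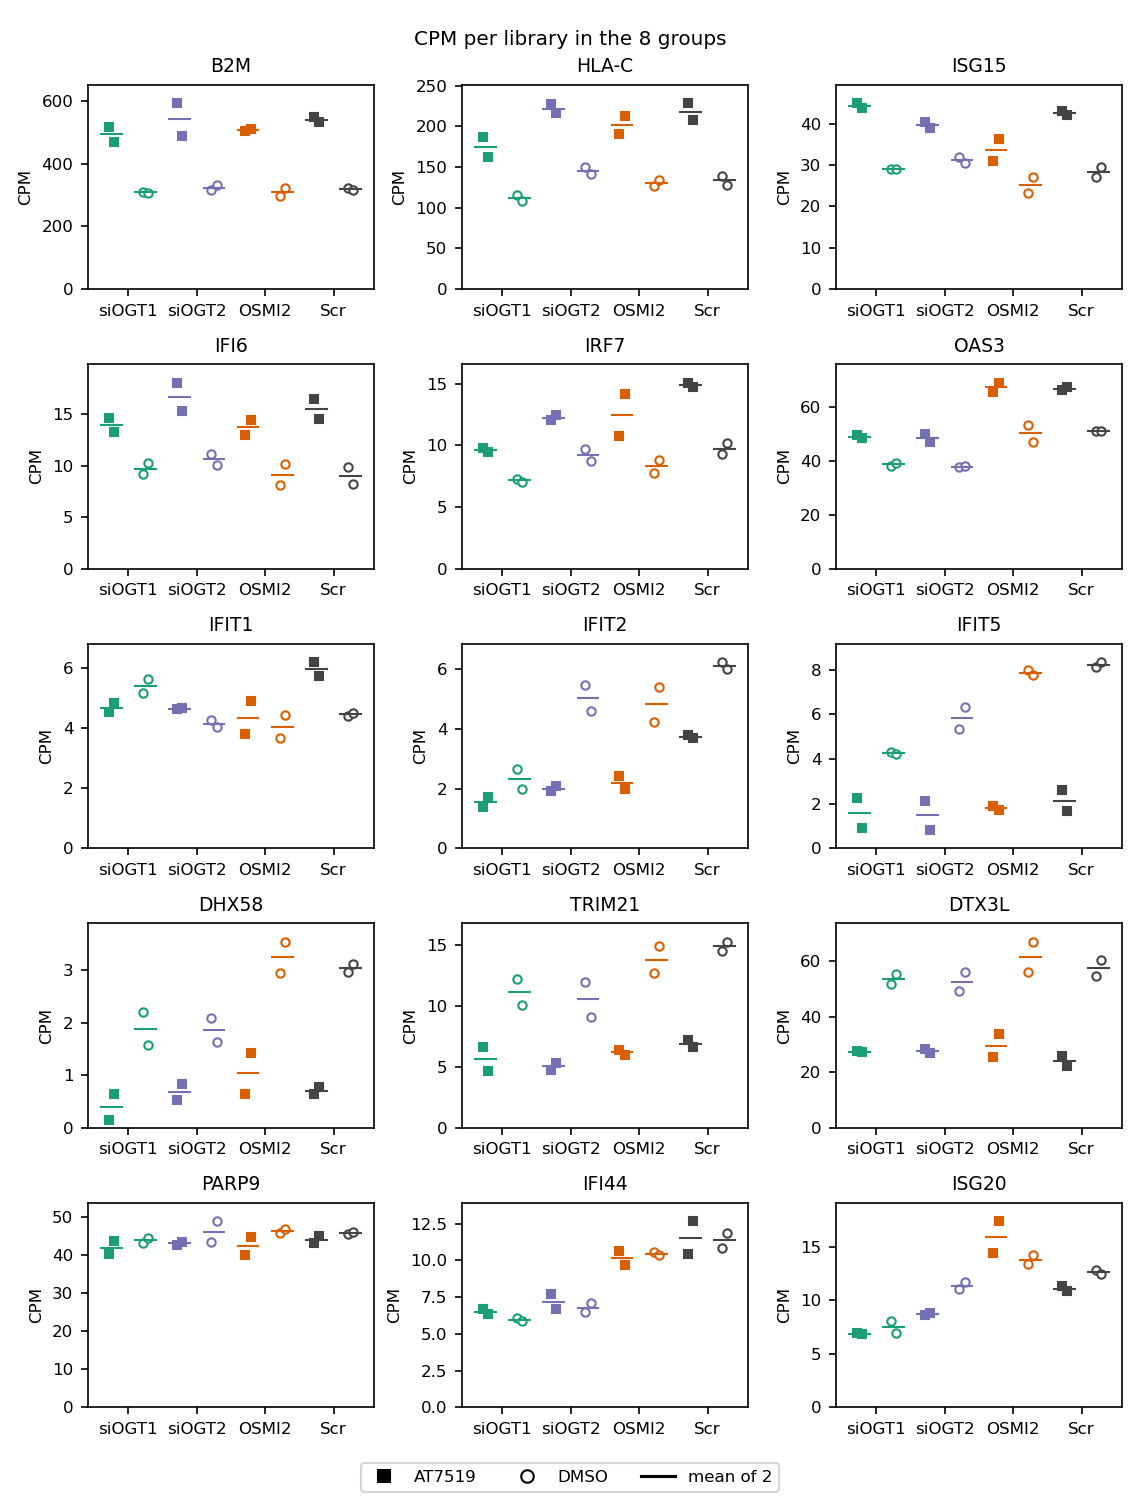
CPM of 15 of the genes in each library, by arm, with AT7519 as filled squares, DMSO as open circles and the mean of 2 as a line. B2M, HLA-C and ISG15 are higher with AT7519 in every arm, IFIT5, DHX58, TRIM21 and DTX3L are lower, and IFI44 is lower in siOGT1 and siOGT2 cells than in OSMI2 and Scr cells with either agent.

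The other members that passed did so in 1 arm each. In the ISG15 system, UBA7, its activating enzyme, rose in OSMI2 (log2 fold change 0.60 ± 0.22, edgeR adjusted p = 0.0288), HERC5, its ligase, rose in siOGT2 (log2 fold change 0.44 ± 0.15, edgeR adjusted p = 0.0244), and HERC6 rose in Scr (log2 fold change 0.30 ± 0.12, edgeR adjusted p = 0.0497). TRIM25 rose in OSMI2 (log2 fold change 0.25 ± 0.08, edgeR adjusted p = 0.0136), at 158 and 181 CPM with AT7519 against 141 and 145 CPM with DMSO, but by library size alone this estimate was -0.0035. USP18, which removes ISG15 from proteins and damps the receptor, fell in siOGT1 (log2 fold change -0.31 ± 0.12, edgeR adjusted p = 0.0377), at 11.1 and 9.61 CPM with AT7519 against 12.8 and 12.8 CPM with DMSO. BST2, which tethers virus particles to the cell, rose in Scr (log2 fold change 1.59 ± 0.49, edgeR adjusted p = 0.0118), although it stayed under 1 CPM. IFI35 rose in OSMI2 (log2 fold change 0.40 ± 0.15, edgeR adjusted p = 0.0333), and ISG20, an RNA exonuclease, fell in siOGT2 (log2 fold change -0.38 ± 0.13, edgeR adjusted p = 0.022). OAS2 had 0 counts in both OSMI2 libraries with AT7519 and 10 and 10 counts with DMSO. With 3 counts over the group taken in place of 0, OAS2 would be 4.74-fold lower than with DMSO (edgeR adjusted p = 0.00842 for the counts themselves). That fold depends on the floor chosen and leaves out the spread of the DMSO level. Every OAS2 count was even, so the counts may not be independent reads. With upper-quartile scaling the calls of USP18 in siOGT1 (edgeR adjusted p = 0.21), ISG20 in siOGT2 (edgeR adjusted p = 0.0915) and IRF1 in OSMI2 (edgeR adjusted p = 0.0814) ended. With no low-count filter the calls of IFIT1 in Scr (edgeR adjusted p = 0.0954), HERC6 in Scr (edgeR adjusted p = 0.0780), and TAP1, IFI35 and TRIM25 in OSMI2 (edgeR adjusted p of 0.0665 to 0.114) ended. The USP18 call also ended with RLE scaling (edgeR adjusted p = 0.0704) and with no low-count filter (edgeR adjusted p = 0.0936). DESeq2 did not call it either (DESeq2 adjusted p = 0.0544). By library size alone the calls of HERC6 and IFIT1 in Scr and HERC5 in siOGT2 ended (edgeR adjusted p of 0.377 to 0.763). So did those of UBA7, IFI35 and STAT2 in OSMI2 (edgeR adjusted p of 0.227 to 0.675).

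The 12 that passed in no arm included MX1 and OAS1, textbook markers of an interferon response. MX1, a GTPase that traps viral components, was at 1.87 and 2.74 CPM with AT7519 against 2.42 and 2.39 CPM with DMSO in siOGT1 cells, and at 1.96 and 2.84 against 2.62 and 1.79 in siOGT2 cells. In OSMI2 cells, MX1 was at 3.41 and 4.08 against 3.92 and 3.58, and in Scr cells at 3.47 and 3.24 against 3.55 and 3.86. OAS1 was at 1.101 and 1.47 CPM with AT7519 against 1.11 and 0.679 CPM with DMSO in siOGT1 cells, and at 1.52 and 1.16 against 1.31 and 1.29 in siOGT2 cells. In OSMI2 cells, OAS1 was at 1.98 and 2.66 against 1.55 and 1.62, and in Scr cells at 1.65 and 2.55 against 1.93 and 1.88. IFI27 was at 0.716 and 1.29 CPM with AT7519 against 1.505 and 0.792 CPM with DMSO in siOGT1 cells, and at 0.737 and 0.8503 against 1.12 and 0.685 in siOGT2 cells. In OSMI2 cells, IFI27 was at 1.23 and 1.11 against 0.729 and 1.14, and in Scr cells at 0.631 and 0.722 against 0.619 and 0.599. Their log2 fold changes ran from -0.14 to 0.12 for MX1, from 0.04 to 0.54 for OAS1 and from -0.21 to 0.32 for IFI27. The others were IFI44, IFI44L, IFIH1, DDX60, MX2, OASL, PARP9, PARP14 and SP100.

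With 2 libraries a group, some of these calls rested on a library. The calls of B2M, HLA-B, HLA-C, OAS3, TRIM21 and DTX3L held without each library in turn in all 4 arms. The calls named next ended without at least 1 library, and the edgeR adjusted p found then is given for each. For siOGT1 cells, IFIT2 did not pass without siOGT1 with AT7519 replicate 1 or siOGT1 with DMSO replicate 1 (0.208 to 0.381), nor did IFIT5 without siOGT1 with AT7519 replicate 2 (0.0511). IFI6 did not pass without siOGT1 with DMSO replicate 1 (0.0762), nor did IRF7 without siOGT1 with AT7519 replicate 1 or either siOGT1 with DMSO replicate (0.0654 to 0.101). USP18 did not pass without siOGT1 with AT7519 replicate 2 or either siOGT1 with DMSO replicate (0.115 to 0.348), nor did PML without siOGT1 with AT7519 replicate 1 (0.0503). TAP1 did not pass without siOGT1 with AT7519 replicate 1 or either siOGT1 with DMSO replicate (0.0524 to 0.174). For siOGT2 cells, ISG15 did not pass without siOGT2 with DMSO replicate 2 (0.0743), nor did ISG20 without either siOGT2 with AT7519 replicate or either siOGT2 with DMSO replicate (0.0557 to 0.119). DHX58 did not pass without siOGT2 with AT7519 replicate 1 or siOGT2 with DMSO replicate 1 (0.0678 to 0.0777), nor did IRF7 without siOGT2 with AT7519 replicate 2 or siOGT2 with DMSO replicate 2 (0.082 to 0.163). HERC5 did not pass without siOGT2 with AT7519 replicate 1 or siOGT2 with DMSO replicate 1 (0.151 to 0.237). For OSMI2 cells, ISG15 did not pass without OSMI2 with AT7519 replicate 2 or OSMI2 with DMSO replicate 1 (0.0597 to 0.0673), nor did IFIT3 without OSMI2 with AT7519 replicate 1 or OSMI2 with DMSO replicate 2 (0.0624 to 0.171). IFI6 did not pass without OSMI2 with DMSO replicate 1 (0.0671), nor did IFI35 without OSMI2 with AT7519 replicate 2 or either OSMI2 with DMSO replicate (0.103 to 0.319). OAS2 did not pass without OSMI2 with AT7519 replicate 1 (0.0774), nor did IRF1 without either OSMI2 with AT7519 replicate or OSMI2 with DMSO replicate 1 (0.0678 to 0.20). IRF7 did not pass without OSMI2 with AT7519 replicate 2 (0.0763), nor did STAT2 without either OSMI2 with AT7519 replicate or either OSMI2 with DMSO replicate (0.0652 to 0.142). TRIM25 did not pass without OSMI2 with AT7519 replicate 2 or OSMI2 with DMSO replicate 1 (0.0968 to 0.331), nor did UBA7 without OSMI2 with AT7519 replicate 2 or OSMI2 with DMSO replicate 1 (0.27 to 0.418). PML did not pass without OSMI2 with AT7519 replicate 1 (0.0515), nor did TAP1 without OSMI2 with AT7519 replicate 2 or OSMI2 with DMSO replicate 1 (0.183 to 0.354). For Scr cells, IFIT1 did not pass without either Scr with AT7519 replicate or either Scr with DMSO replicate (0.0712 to 0.17), nor did BST2 without Scr with AT7519 replicate 2 or either Scr with DMSO replicate (0.0617 to 0.0671). HERC6 did not pass without Scr with AT7519 replicate 1 or either Scr with DMSO replicate (0.122 to 0.257), nor did PML without either Scr with AT7519 replicate or either Scr with DMSO replicate (0.0724 to 0.149).

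The OGT arms were next set against Scr. A contrast of 1 siRNA with Scr cannot tell loss of OGT apart from any other effect of that siRNA. The OSMI2 contrast may also hold a difference in siRNA treatment, since it is not known if OSMI2 cells got scrambled siRNA. The 3 arms share the same Scr libraries. Under DMSO, 8 of the 40 genes were lower in siOGT1 cells and none higher, with 10.4% of all tested genes called. The siOGT2 cells had 2 lower and none higher, with 4.3% called. OSMI2 cells had none called, with 2.98% of all tested genes called, 1 member at an unadjusted p under 0.05 and none by DESeq2. The median log2 fold change of the 40 was -0.27 in siOGT1, -0.11 in siOGT2 and -0.03 in OSMI2. Over all tested genes it was -0.01 in siOGT1, -0.02 in siOGT2 and -0.01 in OSMI2.

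The 8 genes that fell with siOGT1 under DMSO included RNA effectors of the IFIT and OAS families, ISG20, IFI44 and the regulator IRF7. IFIT2 was at 2.66 and 1.97 CPM in siOGT1 cells, 5.47 and 4.602 in siOGT2 cells, 4.23 and 5.42 in OSMI2 cells and 6.23 and 6.02 in Scr cells. It fell (log2 fold change -1.39 ± 0.20, edgeR adjusted p = 1.52e-04) with siOGT1, to 38.3% of Scr, and its estimate with siOGT2 was -0.28 ± 0.20 (edgeR adjusted p = 0.526). IFI44 was at 6.07 and 5.88 CPM in siOGT1 cells, 6.47 and 7.11 in siOGT2 cells, 10.6 and 10.3 in OSMI2 cells and 10.8 and 11.9 in Scr cells. It fell with both siRNAs, with log2 fold changes of -0.92 ± 0.14 (edgeR adjusted p = 2.09e-04) for siOGT1 and -0.74 ± 0.14 (edgeR adjusted p = 0.0041) with siOGT2. OAS3 also fell with both, at 38.2 and 39.5 CPM in siOGT1 cells, 37.6 and 38.1 in siOGT2 cells and 51.2 and 51.3 in Scr cells, with log2 fold changes of -0.40 ± 0.08 (edgeR adjusted p = 0.00348) with siOGT1 and -0.44 ± 0.08 (edgeR adjusted p = 0.00458) with siOGT2. ISG20 was at 8.12 and 6.93 CPM in siOGT1 cells, 11.04 and 11.7 in siOGT2 cells and 12.9 and 12.5 in Scr cells, and it fell with siOGT1 (log2 fold change -0.75 ± 0.13, edgeR adjusted p = 6.69e-04). The remaining falls with siOGT1 were OAS1 (log2 fold change -1.05 ± 0.28, edgeR adjusted p = 0.0207), IFIT3 (log2 fold change -1.03 ± 0.29, edgeR adjusted p = 0.0273), PARP14, an ADP-ribosyltransferase (log2 fold change -0.79 ± 0.21, edgeR adjusted p = 0.0182), and IRF7 (log2 fold change -0.44 ± 0.14, edgeR adjusted p = 0.0458). MX1 was at 2.42 and 2.39 CPM in siOGT1 cells, 2.62 and 1.79 in siOGT2 cells and 3.55 and 3.86 in Scr cells, and missed the threshold at -0.62 ± 0.23 (edgeR adjusted p = 0.0918) with siOGT1 and -0.74 ± 0.23 (edgeR adjusted p = 0.0811) with siOGT2. B2M gave -0.05 ± 0.08 (edgeR adjusted p = 0.796) with siOGT1 and 0.02 ± 0.08 (edgeR adjusted p = 0.941) with siOGT2. The IRF7 call ended by library size alone (edgeR adjusted p = 0.0776), with upper-quartile scaling (edgeR adjusted p = 0.0618) and with no low-count filter (edgeR adjusted p = 0.0506). Some calls ended without a library, with the edgeR adjusted p given for each. For siOGT1, IFIT3 did not pass without either siOGT1 with DMSO replicate or either Scr with DMSO replicate (0.0862 to 0.232), nor did OAS1 without siOGT1 with DMSO replicate 2 or either Scr with DMSO replicate (0.0914 to 0.262). IRF7 did not pass without either siOGT1 with DMSO replicate or either Scr with DMSO replicate (0.112 to 0.27), nor did PARP14 without either siOGT1 with DMSO replicate or Scr with DMSO replicate 1 (0.115 to 0.187). For siOGT2, IFI44 did not pass without siOGT2 with DMSO replicate 1 or Scr with DMSO replicate 2 (0.0593 to 0.0622), nor did OAS3 without siOGT2 with DMSO replicate 2 (0.0601).

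**Figure D5:**
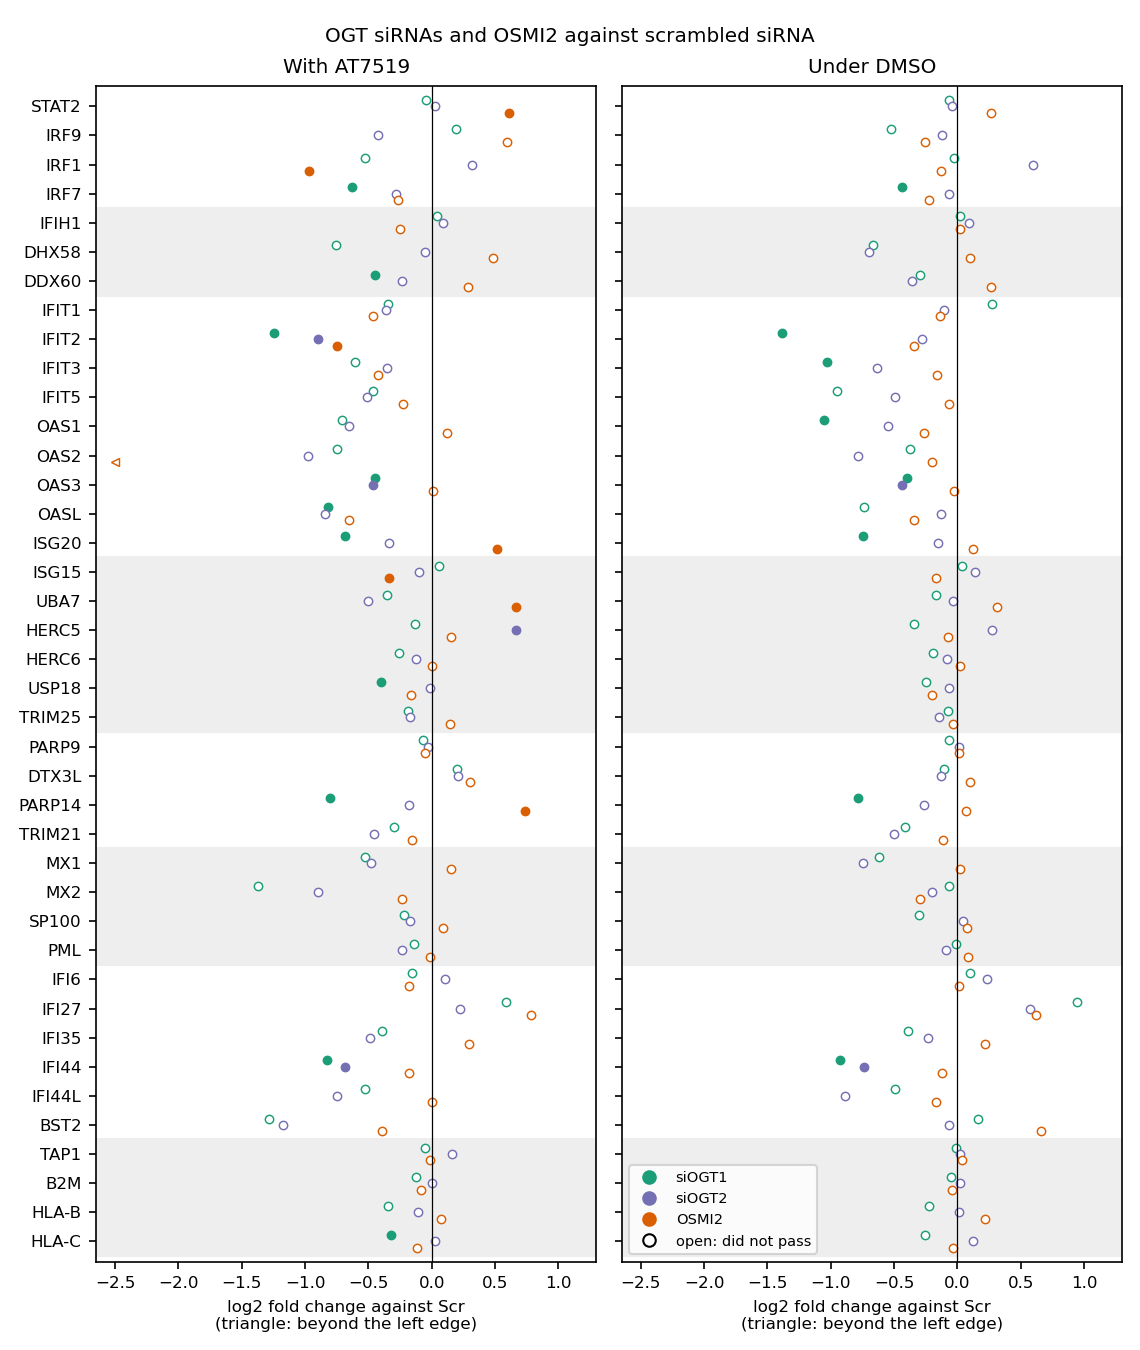
Log2 fold change of siOGT1, siOGT2 and OSMI2 against Scr for the 40 genes, with AT7519 on the left and DMSO on the right, filled where the gene passed the test. IFIT2, IFI44, OAS3 and ISG20 are filled and left of 0 for siOGT1 in both panels, and no point of OSMI2 is filled under DMSO. The triangle is OAS2 in OSMI2, at 0 counts with AT7519.

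With AT7519 present, 10 members were lower in siOGT1 than in Scr and none higher (19.2% of all tested genes called), 3 were lower and 1 higher in siOGT2 (8.16% called), and 3 were lower and 4 higher in OSMI2 (14.2% called). The median of the 40 was -0.37 in siOGT1, -0.24 in siOGT2 and -0.01 in OSMI2, and over all tested genes it was -0.03 in siOGT1, 0.01 in siOGT2 and 0.02 in OSMI2. IFIT2 fell in all 3 arms, with log2 fold changes of -1.25 ± 0.21 (edgeR adjusted p = 3.04e-04) in siOGT1, -0.90 ± 0.21 (edgeR adjusted p = 0.0108) in siOGT2 and -0.75 ± 0.21 (edgeR adjusted p = 0.0209) in OSMI2. IFI44 was at 6.66 and 6.37 CPM in siOGT1 cells, 7.72 and 6.67 in siOGT2 cells and 10.4 and 12.6 in Scr cells, and fell with log2 fold changes of -0.83 ± 0.14 (edgeR adjusted p = 2.67e-04) in siOGT1 and -0.68 ± 0.14 (edgeR adjusted p = 0.00427) in siOGT2. OAS3 fell with log2 fold changes of -0.45 ± 0.08 (edgeR adjusted p = 6.49e-04) in siOGT1 and -0.46 ± 0.08 (edgeR adjusted p = 0.00154) in siOGT2. The siOGT1 cells were also lower in ISG20 (log2 fold change -0.68 ± 0.13, edgeR adjusted p = 8.63e-04), in IRF7 (log2 fold change -0.63 ± 0.14, edgeR adjusted p = 0.00256), in PARP14 (log2 fold change -0.80 ± 0.22, edgeR adjusted p = 0.0135), and in OASL (log2 fold change -0.82 ± 0.26, edgeR adjusted p = 0.0346). Smaller falls with siOGT1 were those of DDX60, a helicase of RNA sensing (log2 fold change -0.45 ± 0.14, edgeR adjusted p = 0.0244), USP18 (log2 fold change -0.40 ± 0.12, edgeR adjusted p = 0.0209) and HLA-C (log2 fold change -0.32 ± 0.09, edgeR adjusted p = 0.0135). HERC5 was higher in siOGT2, at 9.76 and 8.66 CPM against 5.398 and 6.22 CPM in Scr (log2 fold change 0.66 ± 0.15, edgeR adjusted p = 0.0105).

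OSMI2 with AT7519 gave changes in both directions. STAT2 was higher, at 82.9 and 87.3 CPM in OSMI2 cells against 52.3 and 58.8 CPM in Scr cells (log2 fold change 0.61 ± 0.11, edgeR adjusted p = 8.55e-04). PARP14 was at 4.15 and 5.16 CPM in OSMI2 cells against 2.65 and 2.89 CPM in Scr cells, higher (log2 fold change 0.74 ± 0.21, edgeR adjusted p = 0.0232), and ISG20 was higher (log2 fold change 0.51 ± 0.13, edgeR adjusted p = 0.00999). UBA7 was higher (log2 fold change 0.66 ± 0.22, edgeR adjusted p = 0.0498). IRF1 was lower, at 1.49 and 1.34 CPM in OSMI2 cells against 3.13 and 2.46 CPM in Scr cells (log2 fold change -0.97 ± 0.29, edgeR adjusted p = 0.0292), and ISG15 was lower (log2 fold change -0.34 ± 0.10, edgeR adjusted p = 0.0277). By library size alone the calls of ISG15 (edgeR adjusted p = 0.108) and IRF1 (edgeR adjusted p = 0.0556) in OSMI2 and of DDX60 (edgeR adjusted p = 0.0566) and OASL (edgeR adjusted p = 0.0590) in siOGT1 ended, as did that of UBA7 in OSMI2 with RLE scaling (edgeR adjusted p = 0.0600). By library size alone the split in OSMI2 was 6 higher and 1 lower, and the median of all genes was 0.12. Some calls with AT7519 ended without a library, again with the edgeR adjusted p. For siOGT1, DDX60 did not pass without siOGT1 with AT7519 replicate 1 or Scr with AT7519 replicate 1 (0.109 to 0.194), nor did OASL without either siOGT1 with AT7519 replicate or Scr with AT7519 replicate 2 (0.0811 to 0.228). PARP14 did not pass without either siOGT1 with AT7519 replicate or Scr with AT7519 replicate 2 (0.0509 to 0.0813), nor did USP18 without siOGT1 with AT7519 replicate 2 or Scr with AT7519 replicate 2 (0.124 to 0.208). HLA-C did not pass without siOGT1 with AT7519 replicate 2 or Scr with AT7519 replicate 1 (0.097 to 0.173). For siOGT2, IFIT2 did not pass without siOGT2 with AT7519 replicate 1 (0.0593), nor did IFI44 without siOGT2 with AT7519 replicate 2 or Scr with AT7519 replicate 2 (0.0521 to 0.0794). HERC5 did not pass without siOGT2 with AT7519 replicate 1 or Scr with AT7519 replicate 1 (0.0752 to 0.106). For OSMI2, ISG15 did not pass without OSMI2 with AT7519 replicate 1 or Scr with AT7519 replicate 1 (0.0695 to 0.144), nor did ISG20 without OSMI2 with AT7519 replicate 2 or either Scr with AT7519 replicate (0.0663 to 0.169). IFIT2 did not pass without OSMI2 with AT7519 replicate 2 or Scr with AT7519 replicate 1 (0.0658 to 0.136), nor did IRF1 without either OSMI2 with AT7519 replicate or Scr with AT7519 replicate 1 (0.0725 to 0.148). PARP14 did not pass without OSMI2 with AT7519 replicate 2 or either Scr with AT7519 replicate (0.0625 to 0.212), nor did UBA7 without OSMI2 with AT7519 replicate 2 or either Scr with AT7519 replicate (0.0798 to 0.494).

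The 2 siRNAs target the same gene, and OGT was lower with siOGT1 than with siOGT2 under DMSO (log2 fold change -0.88, edgeR adjusted p = 0.00113). Under DMSO 4 members were lower with siOGT1 than with siOGT2 and none higher, with 1.82% of all tested genes called. They were IFIT2 (log2 fold change -1.10 ± 0.20, edgeR adjusted p = 0.00436), ISG20 (log2 fold change -0.59 ± 0.13, edgeR adjusted p = 0.0164), HERC5 (log2 fold change -0.62 ± 0.15, edgeR adjusted p = 0.0427) and HLA-C (log2 fold change -0.38 ± 0.09, edgeR adjusted p = 0.0257). HLA-C was at 116 and 108 CPM with siOGT1 and 149.9 and 141 CPM with siOGT2, and HERC5 at 4.28 and 4.61 CPM with siOGT1 and 6.15 and 7.45 CPM with siOGT2. All 4 calls ended when single libraries were left out, with these edgeR adjusted p. ISG20 did not pass without siOGT1 with DMSO replicate 2 or either siOGT2 with DMSO replicate (0.102 to 0.358), nor did IFIT2 without siOGT1 with DMSO replicate 2 or siOGT2 with DMSO replicate 1 (0.0994 to 0.145). HERC5 did not pass without either siOGT1 with DMSO replicate or either siOGT2 with DMSO replicate (0.0869 to 0.453), nor did HLA-C without either siOGT1 with DMSO replicate or either siOGT2 with DMSO replicate (0.0925 to 0.409).

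The test of whether an arm's AT7519 response differs from that in Scr called none of the 40 in any arm by edgeR or by DESeq2. It called 0.0504% of all tested genes for siOGT1, 0% for siOGT2 and 0.747% for OSMI2. At an unadjusted p under 0.05 there was 1 member for siOGT1, IFIT1 (difference of -0.62 ± 0.23, edgeR adjusted p = 0.652), and 1 for siOGT2, IFIT2 (-0.62 ± 0.29, edgeR adjusted p = 1). OSMI2 had 5, namely PARP14 (0.67 ± 0.29, edgeR adjusted p = 0.495), IRF1 (-0.84 ± 0.39, edgeR adjusted p = 0.552), STAT2 (0.35 ± 0.15, edgeR adjusted p = 0.50), ISG20 (0.39 ± 0.18, edgeR adjusted p = 0.529) and OAS2, whose group at 0 leaves no fitted size. These p-values do not show that the responses were alike.

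Other genes of the pathway were counted from lists, beside all tested genes, of which 21.8% were higher and 24.6% lower with AT7519 in Scr cells. With AT7519 in Scr cells, 8 of 18 tested antigen-presentation genes outside the 40 rose and none fell, among them PSME2, a proteasome activator subunit (log2 fold change 0.73 ± 0.07, edgeR adjusted p = 6.13e-08), PDIA3 (log2 fold change 0.68 ± 0.09, edgeR adjusted p = 2.79e-06), CALR (log2 fold change 0.63 ± 0.10, edgeR adjusted p = 2.13e-05) and CANX (log2 fold change 0.54 ± 0.09, edgeR adjusted p = 3.62e-05), chaperones of class I folding. The share called, 44.4%, was near the 46.5% of all tested genes. In siOGT1 8 rose and none fell, in siOGT2 8 rose and 1 fell, and in OSMI2 10 rose and none fell. These are 44.4% of the list called in siOGT1, 50% in siOGT2 and 55.6% in OSMI2, beside 41.5% of all tested genes in siOGT1, 45% in siOGT2 and 47.2% in OSMI2. Of 12 tested sensors and adaptors, 7 fell and 1 rose in Scr, including TBK1, a kinase that activates interferon regulatory factors (log2 fold change -1.35 ± 0.09, edgeR adjusted p = 4.01e-10), RIGI, an RNA sensor (log2 fold change -1.08 ± 0.15, edgeR adjusted p = 5.66e-06), and MAVS, the adaptor of RNA sensors (log2 fold change -0.62 ± 0.08, edgeR adjusted p = 1.45e-06). The share called was 66.7% in Scr. In siOGT1 6 fell (50% of the list), in siOGT2 5 (41.7%, under the 45% of all tested genes) and in OSMI2 6 (50%), with none higher. Of 10 tested receptors and kinases, 3 rose and 5 fell in Scr (80% called), and the falls included IL10RB (log2 fold change -0.84 ± 0.20, edgeR adjusted p = 0.00177), JAK2 (log2 fold change -0.76 ± 0.11, edgeR adjusted p = 1.26e-05), IFNGR1 (log2 fold change -0.74 ± 0.13, edgeR adjusted p = 1.09e-04) and IFNAR1 (log2 fold change -0.42 ± 0.09, edgeR adjusted p = 6.75e-04). The 3 rises are not reported here by name, so the genes named show only the falls of this list. In siOGT1 1 rose and 4 fell (50% of the list), in siOGT2 3 rose and 4 fell (70%). In OSMI2 3 rose and 5 fell (80%). Of 7 tested feedback inhibitors 1 rose and 4 fell in Scr (71.4% called), with IRF2, a repressor at the same promoter element (log2 fold change -1.89 ± 0.17, edgeR adjusted p = 2.06e-08), TRIM27 (log2 fold change -1.25 ± 0.08, edgeR adjusted p = 2.76e-10) and PIAS1 (log2 fold change -0.73 ± 0.11, edgeR adjusted p = 2.18e-05), while ADAR rose (log2 fold change 0.20 ± 0.07, edgeR adjusted p = 0.0207). In siOGT1 4 feedback inhibitors fell and none rose (57.1% of the list). In siOGT2 1 rose and 4 fell (71.4%), and in OSMI2 1 rose and 4 fell (71.4%). A further 40 interferon-inducible genes gave 8 higher and 9 lower in Scr (42.5% called, under the 46.5% of all tested genes), such as LY6E (log2 fold change 0.80 ± 0.11, edgeR adjusted p = 3.71e-06) and IFITM3 (log2 fold change 0.77 ± 0.10, edgeR adjusted p = 1.70e-06), and TRIM38 (log2 fold change -1.35 ± 0.13, edgeR adjusted p = 8.24e-08) and APOL2 (log2 fold change -1.21 ± 0.11, edgeR adjusted p = 3.45e-08).

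Against Scr under DMSO, siOGT1 cells had 6 lower and 1 higher of those 40 inducible genes (17.5% called, beside 10.4% of all tested genes), with LY6E at -0.82 ± 0.11 (edgeR adjusted p = 5.72e-05) and SAMHD1, a nucleotide hydrolase, higher (log2 fold change 0.54 ± 0.08, edgeR adjusted p = 3.13e-04). They had 2 of 12 sensors and adaptors lower (16.7%), STING1, the adaptor of DNA sensing, among them at -1.66 ± 0.38 (edgeR adjusted p = 0.00738), and 1 of 10 receptors and kinases (10%, near the share of all tested genes), STAT3 (log2 fold change -0.72 ± 0.08, edgeR adjusted p = 8.60e-06). STAT3 was also lower with siOGT1 than with siOGT2 (log2 fold change -0.66 ± 0.08, edgeR adjusted p = 6.76e-05), and its estimate for siOGT2 against Scr was -0.06 ± 0.08 (edgeR adjusted p = 0.799). The siOGT2 cells had 1 inducible gene lower, LY6E (log2 fold change -0.69 ± 0.11, edgeR adjusted p = 8.77e-04), and OSMI2 cells 1, PNPT1 (log2 fold change -0.36 ± 0.08, edgeR adjusted p = 0.014). Each is 2.5% of the list, under the 4.3% of all tested genes called in siOGT2 and the 2.98% called in OSMI2. The fibroblast and endothelial marker sums were lower with both siRNAs than in Scr, but the leukocyte and basal sums were not throughout. The 5 leukocyte markers summed to 0.129 and 0.218 CPM in siOGT1 cells with DMSO, against 0.084 and 0.177 CPM in Scr cells. With AT7519 these were 0.202 and 0.284 CPM in siOGT1 cells against 0.074 and 0.206 CPM in Scr cells. The fibroblast list's 5 genes summed to 11.6 and 13.2 CPM in siOGT1 cells with DMSO, 16.8 and 17.9 CPM in siOGT2 cells with DMSO and 22.4 and 24.6 CPM in Scr cells with DMSO, and to 13.2 and 18.3 CPM in siOGT1 cells with AT7519, 18.6 and 21.5 CPM in siOGT2 cells with AT7519 and 29.7 and 34.6 CPM in Scr cells with AT7519. COL1A1 made up most of that sum and fell (log2 fold change -0.95 ± 0.16, edgeR adjusted p = 8.73e-04) in siOGT1 under DMSO and in siOGT2 with AT7519 (log2 fold change -0.68 ± 0.16, edgeR adjusted p = 0.0126), and it rose with AT7519 in Scr (log2 fold change 0.46 ± 0.16, edgeR adjusted p = 0.0245). The 2 endothelial markers summed to 9.89 and 11.2 CPM in siOGT1 cells with DMSO, 12 and 12.6 CPM in siOGT2 cells with DMSO and 16.3 and 16.9 CPM in Scr cells with DMSO, including VWF, which fell in siOGT1 (log2 fold change -0.65 ± 0.14, edgeR adjusted p = 0.00426) and was at -0.43 ± 0.14 (edgeR adjusted p = 0.0846) in siOGT2. The 3 basal markers summed to 0.172 and 0.401 CPM in siOGT2 cells with AT7519 and 0.779 and 0.855 CPM in Scr cells with AT7519, and KRT14 among them was lower (log2 fold change -1.54 ± 0.41, edgeR adjusted p = 0.0253). In siOGT1 cells with AT7519 the basal markers summed to 0.697 and 0.936 CPM, which overlapped Scr. The part of all these markers in the result was not tested. With AT7519, COL1A2 and TP63 were at 0 in the siOGT1 libraries and in the Scr libraries. Over all libraries the basal markers summed to 0.172 to 1.08 CPM.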

How the data were processed

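RNA of LNCaP cells was measured in 16 libraries, 2 in each of 8 groups, from strand-specific total-RNA libraries per the labels. STAR, HTSeq, DESeq2 and the build hg19 (GRCh37) are named, without roles, per the submitters' processing notes. The values used were the deposited raw counts per gene, made by the authors. The authors' normalized counts were not used.

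Tests used edgeR 4.0.16 in R 4.3.3 (filterByExpr, TMM, robust glmQLFit, two-sided glmQLFTest, 1 mean per group over all 16 libraries, 8 residual degrees of freedom). Adjusted p-values cover all 23830 genes tested. Each SE was taken as log2 fold change divided by root F, unsigned. The common biological coefficient of variation was 0.1104. Gene names came from a table that matched 55528 of 60252 IDs, exon lengths and overlaps from a GRCh38 annotation, and promoters from RefSeq. The 40 members and the other lists were chosen with earlier results of these data known. Values were given for 19 members chosen by role, and in each comparison for up to 8 called members per direction with the largest changes and up to 4 genes per pathway list with the smallest adjusted p. Genes shown in other sentences were chosen after their values were seen. As alternatives, scaling was by RLE, upper quartile or library size, and there was no filter, a replicate block, DESeq2 1.42.0 and each library left out. Some genes of the pathway lists are not reported here by name. The code was tested on simulated data.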

Additional observations from a re-analysis of the deposited data

How the results depend on the processing

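Of 106 member calls over all comparisons, 48 held under every alternative run and 58 ended under at least 1. Calls that ended numbered 1 with DESeq2, 3 with RLE scaling, 8 with upper-quartile scaling and 9 with no low-count filter. With library size alone 26 ended at the same sign, and 1 more, TRIM25 with AT7519 in OSMI2, changed sign. Counting TRIM25, 22 of 71 calls of AT7519 against DMSO ended with library size alone, all of them rises. The log2 fold change of TRIM25 with AT7519 in OSMI2, 0.25 as reported, was -0.0035 (edgeR adjusted p = 0.976) with library size alone. The number of members called went to 4 for siOGT2 against Scr under DMSO with no low-count filter, and to 7 for siOGT2 against Scr with AT7519 by DESeq2. The cause was not tested. Leaving out 1 library at a time, the number called ranged from 10 to 13 in siOGT1, 14 to 15 in siOGT2, 13 to 18 in OSMI2 and 14 to 16 in Scr for AT7519 against DMSO. Against Scr it ranged from 4 to 5 for siOGT1, 1 to 2 for siOGT2 and 0 to 0 for OSMI2 under DMSO, and from 7 to 9 for siOGT1, 3 to 3 for siOGT2 and 1 to 6 for OSMI2 with AT7519. It ranged from 0 to 2 for siOGT1 against siOGT2, and was 0 for each difference in response. A group left with 1 library was assumed to vary like the others.

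Nothing in the labels says what a replicate number shares. Deviations of same-numbered libraries correlated by 0.168 to 0.191 among siOGT1, siOGT2 and Scr with AT7519 and by 0.0689 to 0.109 among them under DMSO. In the other pairs of groups the correlation was -0.0524 to 0.0468. What the libraries with the higher correlations share was not tested. The main tests did not pair the samples, and a block by replicate number was run as an alternative. With the replicate block the number called was 15 in siOGT1, 17 in siOGT2, 22 in OSMI2 and 20 in Scr for AT7519 against DMSO. Against Scr it was 10 for siOGT1, 2 for siOGT2 and 0 for OSMI2 under DMSO, and 13 for siOGT1, 6 for siOGT2 and 8 for OSMI2 with AT7519. None of the 106 calls ended. Genes under 1 CPM (IFI44L, MX2, OAS2, BST2) rest on few counts, and a miss there says little.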
